A study of Mus musculus with 4 samples.

Results

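The 8 genes described here encode parts of the dystrophin-glycoprotein complex and of costameres in mouse heart. They are *Dag1*, *Sgca*, *Sgcb*, *Sgcd*, *Dtna*, *Utrn*, *Vcl* and *Ilk*. They are autosomal genes taken by name and matched through their Entrez Gene identifiers, and they were chosen with earlier results of these data known. All 8 were found among the 24454 genes of the count table, and all 8 passed the filter on low counts that left 14266 genes to test. The counts come from RNA-seq of mouse hearts at postnatal day 7 (P7), in a search for genes under the control of *miR-128*. There were 2 libraries of control (Ctrl) hearts, WH7 and WH8, and 2 libraries of *miR-128* overexpression transgenic (miR-128OE) hearts, WH9 and WH10.

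Ctrl mice were *miR-128*TetRE mice, which carry *miR-128* behind a tetracycline-responsive promoter in the Rosa26 locus. The miR-128OE mice carried the same allele together with *α-MHC*-tTA, in which the *α-MHC* promoter drives the tetracycline transactivator in cardiomyocytes (CMs). Both groups were on a C57BL/6 background and share the TetRE allele. The transactivator is present in miR-128OE mice alone, so its effect and that of *miR-128* cannot be told apart. When doxycycline was withdrawn for the P7 hearts, and whether each library is 1 animal, is not given in the sources used here. The p-values therefore measure only the spread between these libraries, which may be technical.

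The dystrophin-glycoprotein complex is a bridge through the muscle cell membrane. Outside the cell, α-dystroglycan binds laminin through a long sugar chain. Inside, β-dystroglycan binds dystrophin or its relative utrophin, which hold cortical actin. The sarcoglycans form a subcomplex beside dystroglycan, and dystrobrevins and syntrophins bind to dystrophin inside the cell. Costameres are rib-like sites where the Z-discs of the outer myofibrils are fixed to this membrane. Vinculin and the integrin-linked kinase ILK belong to the integrin arm of the same sites, and loss of several of these proteins causes cardiomyopathy.

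Because *miR-128* was the transgene, its mature sequence and the matches to its seed in the genes are shown first. The mature sequence, from RefSeq on GRCm38.p6, is given 5′ to 3′ with the seed (bases 2 to 8) in capitals.

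miR-128-3p: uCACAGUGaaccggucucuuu

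Matches were searched on the transcript strand in the longest 3′UTR of each gene among protein-coding transcripts of GENCODE M21. A match was CACTGTG (pairing with bases 2 to 8) or ACTGTGA (pairing with bases 2 to 7, followed by an A), and where the 2 overlap they were counted as 1 match. Of 13463 tested genes with a 3′UTR, 4176 (31.0%) held a match. Of the 8 genes, 3 held one. *Sgcb* had 4 in 2746 bases, a number reached or passed by 0.787% of tested genes with a 3′UTR. That share takes no account of length, and the median 3′UTR of these genes was 1199 bases. *Sgcd* had 2 in 1710 bases and *Dtna* had 2 in 3934 bases. *Dag1*, *Sgca*, *Utrn*, *Vcl* and *Ilk* had none. *Dmd*, which encodes dystrophin, had 1 match in 3659 bases. The matches of *Sgcb*, *Sgcd* and *Dmd* are printed below with up to 11 bases on each side, 5′ to 3′ on the gene's strand, with the match in capitals.

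Sgcb, chr5:73635365-73635371, minus strand: ctggggagcacCACTGTGtctattatgta
Sgcb, chr5:73635100-73635106, minus strand: agagacagggaCACTGTGctctgtctttg
Sgcb, chr5:73633852-73633858, minus strand: ataccttatagACTGTGAactcaggctaa
Sgcb, chr5:73633035-73633042, minus strand: caatcttcttgCACTGTGAcagaagcaaaa
Sgcd, chr11:46897800-46897806, minus strand: cccaccccctgACTGTGAcacacttcctc
Sgcd, chr11:46896917-46896923, minus strand: atcttaatattACTGTGAagatagtaaca
Dmd, chrX:85205140-85205146, plus strand: gtggaggctgtCACTGTGttacatgggta

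A match is a description of these letters and not a measured site. None of the 3 genes with a match was lower in miR-128OE hearts by the test. *Sgcd* and *Dtna* were higher, and *Sgcb*, with 4 matches, did not pass the threshold in either direction. *Dmd*, which is not one of the 8 and had 1 match, was called lower (log2 fold change −0.65). Whether *miR-128* acts through any of these matches was not tested. The values are given below.

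Libraries held 8096870 to 14359838 counts. Of the *miR-128* genes, no count fell on *Mir128-1* (0 in each library). For *Mir128-2*, WH9 held 2 and WH10 held 10 counts, with 0 in WH7 and WH8, too few to test. *Xist* RNA, which coats the inactive X, gave 14543 counts in WH7 and 11339 in WH8 but 94 in WH9 and 132 in WH10. The Y-linked gene *Ddx3y* went the other way, at 13 and 7 against 1442 and 1768 counts. Sex therefore coincided with the group, and the effects of sex and of genotype cannot be told apart for any gene below. Summed over 4 atrial genes, WH7 had 5882 CPM (counts divided by the scaled library size) and WH8 had 702, with 2110 and 2702 in WH9 and WH10. The 2 Ctrl libraries thus lay at both ends of this range.

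Among the 8 genes, 5 were higher in miR-128OE hearts, 0 were lower, and 3 did not pass the threshold of 0.05 on the adjusted p-value of edgeR's quasi-likelihood test. Over all tested genes, 16.5% were called higher, 15.0% lower and 31.5% in either direction. The largest rises were those of *Sgca* and *Sgcd*, followed by *Dag1*, *Vcl* and *Dtna*, by 1.57 to 2.21 times. In bulk hearts, a larger share of CMs and more of an RNA per CM cannot be told apart. Both miR-128OE libraries lay above both Ctrl libraries for 7 genes and below both for *Utrn*. Such a gap is common here, since 33.7% of all tested genes had it upward and 34.4% downward. The median log2 fold change of the 8 genes was 0.68, against −0.01 over all tested genes. Without WH9, 3 genes were called higher in place of 5. No gene was lower at an unadjusted p under 0.05 (0 of 8), and DESeq2 also called 5 higher and 0 lower.

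**Figure D1:**
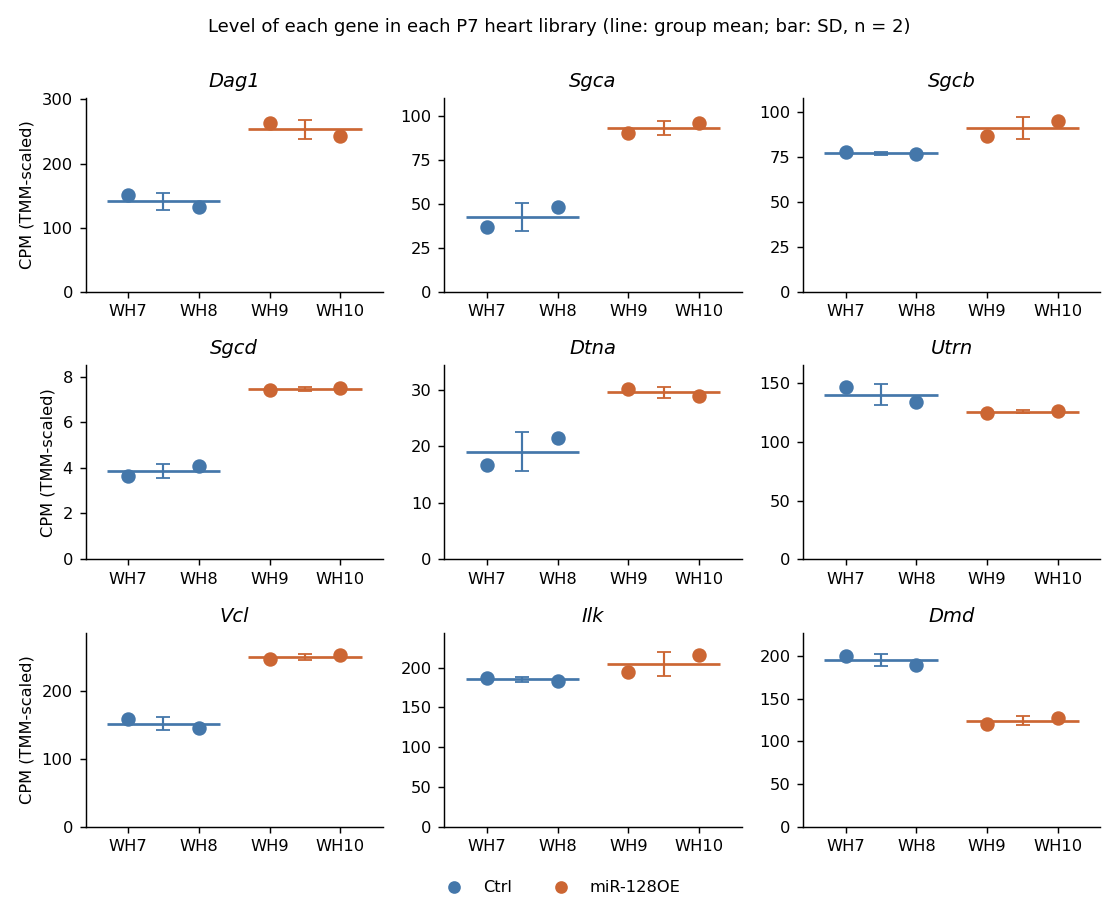
Level of the 8 genes and of *Dmd* in each P7 heart library, in CPM scaled by TMM factors, with every vertical axis starting at 0. Points are libraries, lines are group means and bars are the SD (n = 2). *Sgca* rises from 36.9 and 48.4 to 90.5 and 95.9 CPM, *Ilk* and *Sgcb* shift by little, and *Utrn* and *Dmd* are the panels where miR-128OE lies below Ctrl.

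*Dag1* encodes the precursor that is cut into α- and β-dystroglycan, the laminin receptor at the center of the complex. The gene spans bases 108204634 to 108263958 of chromosome 9 (GRCm38, as for all positions here). Its level was 151 CPM in WH7 and 132 in WH8, and it was 264 CPM in WH9 and 243 in WH10. Both miR-128OE libraries were thus far above both Ctrl libraries. The means were 141 ± 13.3 CPM in Ctrl and 253 ± 14.7 CPM in miR-128OE (SD, n = 2). *Dag1* rose 1.79-fold, or by 0.84 ± 0.09 on the log2 scale (± standard error here and below), with an adjusted p of 0.000279 by the edgeR test. It stayed between 0.75 and 0.94 with any 1 library left out.

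Of the 3 sarcoglycan genes, *Sgca* and *Sgcd* rose and *Sgcb* did not pass the test. *Sgca* encodes α-sarcoglycan, which is largely restricted to striated muscle, and lies on chromosome 11 from 94962791 to 94976327. It had 36.9 and 48.4 CPM in WH7 and WH8 against 90.5 and 95.9 CPM in WH9 and WH10. Its lowest miR-128OE library was well above its highest Ctrl library, although WH7 was clearly the lowest of all. The rise came to 1.14 ± 0.12 on the log2 scale (adjusted p = 0.000236), or 2.21-fold. It was 0.95 without WH7 and 1.34 without WH8, and it was called in both cases.

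*Sgcd* encodes δ-sarcoglycan, a core subunit whose loss causes cardiomyopathy, and it lies on chromosome 11 from 46896253 to 47988969. It had the fewest counts of the 8 genes, with 47 and 34 counts in Ctrl and 88 and 105 counts in miR-128OE libraries. Scaled, these were 3.65 and 4.08 CPM against 7.40 and 7.50 CPM, with no overlap. On the log2 scale the difference was 0.95 ± 0.23 (adjusted p = 0.0123), or 1.94-fold. The counts behind it are few, and the standard error was the largest of the 8. Its call was lost without WH9 (adjusted p = 0.0828) and without WH10 (adjusted p = 0.0760), while the log2 fold change stayed between 0.87 and 1.03.

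*Sgcb* encodes β-sarcoglycan, which pairs with δ-sarcoglycan in the core of the subcomplex, and lies on chromosome 5 from 73632749 to 73647790. It had 77.6 and 76.4 CPM in Ctrl and 86.5 and 95.0 CPM in miR-128OE libraries. The groups did not overlap, but the difference was small, at 0.24 ± 0.09 in log2 units (adjusted p = 0.0590). It passed under 1 alternative, with no filter on low counts (adjusted p = 0.0411). *Sgce*, the more widely expressed ε form, had 33.9 and 33.4 CPM against 43.9 and 40.9 CPM (log2 fold change 0.33, adjusted p = 0.0328).

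*Dtna* encodes α-dystrobrevin, a dystrophin-related protein that carries syntrophins, and lies on chromosome 18 from 23415135 to 23659715. It had 16.6 CPM in WH7 and 21.5 in WH8, and 30.2 in WH9 and 28.9 in WH10. The 2 Ctrl libraries were further apart than the 2 miR-128OE libraries, and the groups did not overlap. In log2 units the change was 0.65 ± 0.14 (adjusted p = 0.00829), or 1.57-fold. It ranged from 0.46 without WH7 to 0.83 without WH8, and the call was lost without WH9 (adjusted p = 0.0675). *Dtnb*, the gene of β-dystrobrevin, had 7.38 and 5.04 CPM in Ctrl and 6.56 and 7.36 CPM in miR-128OE, so its groups overlapped (log2 fold change 0.14 ± 0.24, adjusted p = 0.693).

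*Utrn* encodes utrophin, which can bind dystroglycan in the place of dystrophin, and lies on chromosome 10 from 12382188 to 12869365. It was the only gene of the 8 with a lower mean in miR-128OE hearts. It had 147 and 134 CPM in WH7 and WH8 and 125 and 127 CPM in WH9 and WH10. On the log2 scale the difference was −0.16 ± 0.08 (adjusted p = 0.163), so the difference was not called. Scaled by total counts alone, it was −0.26 (adjusted p = 0.0389), a scaling that also moved the median of all genes to −0.11. With an offset for GC content and length, the difference was −0.04 (adjusted p = 0.778 by edgeR). It was −0.09 without WH7 and −0.22 without WH8.

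*Dmd*, the X-linked gene of dystrophin, fell beside it. It had 200 and 190 CPM in Ctrl and 120 and 128 CPM in miR-128OE libraries, with both miR-128OE libraries far below. On the log2 scale the difference was −0.65 ± 0.08 (adjusted p = 0.000468). It stayed lower and called under every alternative in which it was tested, at −0.75 to −0.47, and at −0.96 with the CM marker scaling described below. *Dmd* is on the X chromosome, and the sex of the hearts coincided with the group. A part played by sex was not tested.

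*Vcl* encodes vinculin, which links talin and α-actinin to actin at costameres and at intercalated discs. It lies on chromosome 14 from 20929398 to 21033676. It had 159 and 145 CPM in Ctrl and 246 and 253 CPM in miR-128OE libraries, so the groups were far apart and the replicates close. In log2 units the change was 0.72 ± 0.08 (adjusted p = 0.000338), or 1.64-fold, and it stayed between 0.66 and 0.79 with any library left out. In GENCODE's basic transcripts, 39.7% of the exonic bases of *Vcl* are shared with *Ap3m1* on the opposite strand, and the handling of strand is not given in the sources used here. *Ap3m1* had 44.8 to 57.0 CPM and did not pass the test (log2 fold change 0.25, adjusted p = 0.0640).

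*Ilk* encodes integrin-linked kinase, the scaffold that joins β1 integrin to parvin and PINCH, and lies on chromosome 7 from 105736592 to 105742925. It had 188 and 183 CPM in Ctrl and 194 and 216 CPM in miR-128OE libraries. The group means differed by less than the 2 miR-128OE libraries did, by 0.15 ± 0.08 in log2 units (adjusted p = 0.209). *Taf10* on the opposite strand shares 81.7% of the exonic bases of *Ilk* in the basic transcripts, and *Rrp8* shares 17.0%. *Taf10* rose from 41.2 and 40.0 CPM to 50.7 and 52.7 CPM (log2 fold change 0.35, adjusted p = 0.0188). Without strand, reads of *Ilk* and of these neighbors cannot be told apart, so the level of *Ilk* is uncertain.

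Levels of different genes were compared per length, as CPM per kb of merged exons. Those of *Ilk* and *Vcl* carry the uncertainty about strand given above. In Ctrl hearts the order of the means was *Ilk* (67.5 CPM per kb), *Sgca* (24.6), *Dag1* (22.3), *Sgcb* (19.0), *Vcl* (18.5), *Utrn* (8.21), *Dtna* (1.13) and *Sgcd* (0.468). *Sgca* and *Dag1* overlapped between their Ctrl libraries, and so did *Sgcb* and *Vcl*, so that neither pair could be ordered. The other neighbors were in the same order in both Ctrl libraries. In miR-128OE hearts the order was *Ilk* (74.7), *Sgca* (53.7), *Dag1* (39.8), *Vcl* (30.5), *Sgcb* (22.4), *Utrn* (7.36), *Dtna* (1.74) and *Sgcd* (0.902), with no overlap between neighbors. *Sgcb* and *Vcl* thus lay together in Ctrl and apart in miR-128OE.

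The order in the middle depends on the length used. Per kb of the longest transcript, *Vcl* (28.8) was second in Ctrl, above *Dag1* (25.0), *Sgca* (24.7) and *Sgcb* (20.3). *Ilk* stayed highest (81.3), and *Utrn* (11.3), *Dtna* (3.03) and *Sgcd* (0.868) stayed lowest. The length of *Dtna* is the least certain, with 16930 bases of merged exons and 6295 in the longest transcript. Exons used in heart were not measured here.

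**Figure D2:**
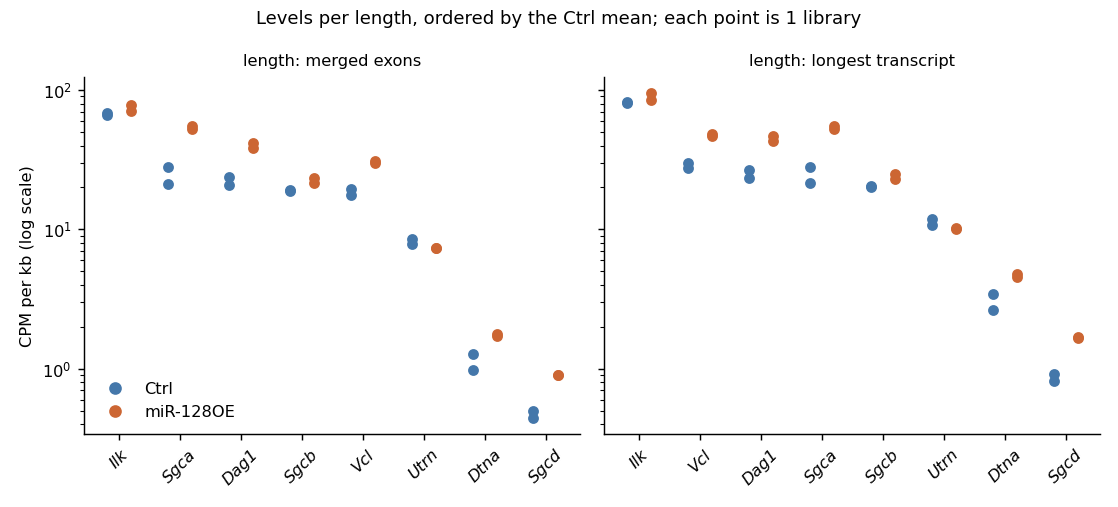
Level of the 8 genes per length, in CPM per kb on a log scale, by merged exons on the left and by the longest annotated transcript on the right, in the order of the Ctrl means. Each point is 1 library. *Ilk* is highest and *Sgcd* lowest by both lengths, while *Vcl* moves from the fifth place to the second. The level of *Ilk* is uncertain because the handling of strand is not known.

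Since these proteins assemble into complexes, the ratio of the levels of pairs of genes within each library was also read. These pairs were chosen after the values were seen. Levels were per kb of merged exons, and the size of each ratio depends on that choice of length. The same annotated length was used in all libraries, so the comparison between groups does not depend on which length is chosen. Whether the exons used differed between the groups was not measured. The level of *Sgca* per kb was 1.11 and 1.48 times that of *Sgcb* in WH7 and WH8, and 2.44 and 2.36 times in WH9 and WH10, with no overlap. The level of *Dag1* was 1.12 and 0.745 times that of *Sgca* in Ctrl and 0.795 and 0.691 times in miR-128OE libraries, so these ratios overlapped. The level of *Sgcb* was 43.3 and 38.1 times that of *Sgcd* in Ctrl and 23.8 and 25.8 times in miR-128OE libraries.

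The level of *Utrn* per kb was 1.02 and 0.983 times that of *Dmd* in Ctrl and 1.44 and 1.38 times in miR-128OE libraries. The higher ratio came with a fall of *Dmd* and not with a rise of *Utrn*. Per kb of the longest transcript, the mean of *Utrn* (11.3) was below that of *Dmd* (13.1) in Ctrl. In miR-128OE hearts it was above (10.2 against 8.32). The level of *Vcl* was 0.284 and 0.265 times that of *Ilk* in Ctrl, and 0.425 and 0.393 times in miR-128OE libraries. Both genes of this last pair share exonic bases with genes on the opposite strand, so their ratio is uncertain. None of these ratios was tested.

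**Figure D3:**
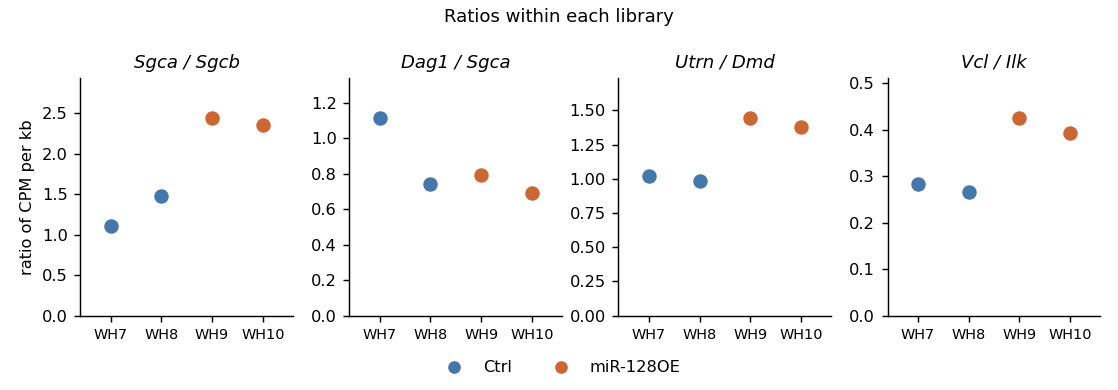
Ratio of the levels of 2 genes (CPM per kb of merged exons) within each library, with each vertical axis starting at 0. The miR-128OE libraries lie above the Ctrl libraries for *Sgca* / *Sgcb*, *Utrn* / *Dmd* and *Vcl* / *Ilk*, and the groups overlap for *Dag1* / *Sgca*.

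The other genes of the pathway were read from 4 lists. Of the 15 further genes of the dystrophin complex, 12 were tested, 6 were higher and 2 were lower, or 50% and 16.7%, against 16.5% and 15.0% of all tested genes (median log2 fold change 0.19). Among the higher genes, *Cav3*, the caveolin of muscle, had 63.5 and 64.8 CPM against 119 and 111 CPM (log2 fold change 0.85, adjusted p = 0.000163). *Pgm5*, *Sgce* and *Sspn*, the gene of sarcospan, were also higher. The lower genes were *Dmd* and *Sntb1*, which encodes a syntrophin (log2 fold change −0.82, adjusted p = 0.0457), and they were named because there were only 2. *Sgcz*, *Nos1* and *Sntg1* were too low to test, with at most 8 counts in a library. The number of higher genes was 3 without WH9 and 3 without WH10, and that of lower genes was 1 without WH8, WH9 or WH10.

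The next list held enzymes that build the laminin-binding sugar of α-dystroglycan. Of 18 genes, 17 were tested, 3 were higher, 1 was lower and 13 were not called (median log2 fold change 0.15). The share called higher was 17.6%, near the 16.5% of all tested genes, and the share called lower was 5.88%, against 15.0%. *Pomgnt1*, which adds N-acetylglucosamine to O-mannose, rose by 0.41 on the log2 scale (adjusted p = 0.00637), and *Dolk*, which makes the lipid carrier of mannose, by 0.65 (adjusted p = 0.00821). *Pomt1*, which adds the first mannose, fell from 16.7 and 20.2 CPM to 10.6 and 11.1 CPM (log2 fold change −0.75, adjusted p = 0.00668). Without WH9, 1 gene was higher and 0 were lower, and without WH8, 2 were lower.

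Of the 13 genes of the basement membrane, among them the ligands of dystroglycan, 7 were higher (53.8%) and 0 were lower. Over all tested genes these shares were 16.5% and 15.0%. The median log2 fold change was 0.31, with 1 lower gene at an unadjusted p under 0.05 and 0 lower by DESeq2. *Lama2*, the laminin α chain of muscle, had 125 and 114 CPM in Ctrl and 174 and 164 CPM in miR-128OE libraries (log2 fold change 0.49, adjusted p = 0.00225). *Nid2* (0.63), *Lamc1* (0.48) and *Col4a1* (0.46), which encode nidogen 2, laminin γ1 and a collagen IV chain, were also higher. *Agrn*, the gene of the dystroglycan ligand agrin, did not pass the test (log2 fold change −0.25, adjusted p = 0.0642). Without WH9, 2 genes were higher, and without WH7, 2 were lower.

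Of the 43 further costamere genes, 18 were higher (41.9%), 2 were lower (4.65%) and 23 were not called, with a median log2 fold change of 0.23. The shares over all tested genes were 16.5% higher and 15.0% lower. *Xirp2* (0.81), *Actn2* (0.76), *Des* (0.75) and *Vasp* (0.54) had the smallest p-values, with adjusted p-values of 0.000287 to 0.00106 by the edgeR test. They encode a Xin repeat protein, the α-actinin of Z-discs, desmin and an actin regulator. *Des* had 528 and 543 CPM in Ctrl against 910 and 895 CPM in miR-128OE libraries.

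Several genes of this list encode proteins that bind ILK or vinculin, and those given here were named after their values were seen. *Itgb1* (0.54), the gene of β1 integrin, was higher. *Lims1* (0.41), *Lims2* (0.32) and *Parvb* (0.56), which encode PINCH proteins and β-parvin, were higher with *Rsu1* (0.39), while *Parva* (−0.09), *Tln1* (0.004), *Tln2* (−0.09) and *Fermt2* (0.06), of α-parvin, the talins and kindlin-2, did not pass the test. The lower genes of the list were *Pxn*, of paxillin (−0.33), and *Ank3*, of ankyrin-G (−0.42). Without WH9, 10 genes were higher and 0 lower, and without WH10, 0 were lower.

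**Figure D4:**
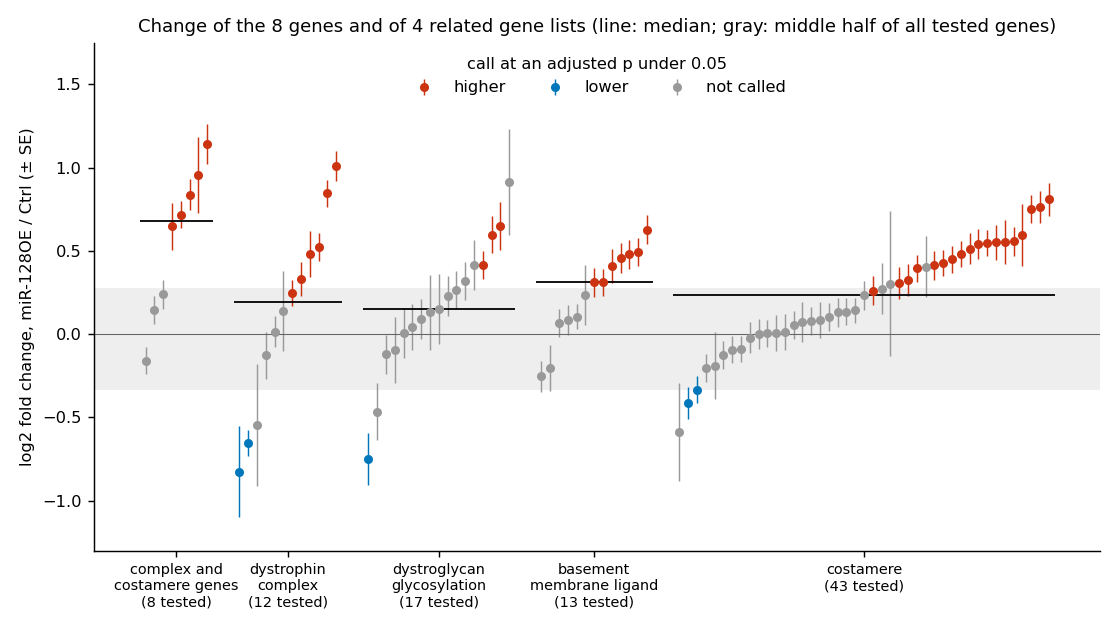
Log2 fold change between miR-128OE and Ctrl hearts, with its standard error, for the 8 genes and the tested genes of 4 related lists, each list in order of its values. Colors give the call at an adjusted p under 0.05, black lines the median of each list, and the gray band the range from −0.33 to 0.27 that holds the middle 50% of all tested genes. The 5 called genes of the first list all lie above the band.

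The labelled tissue was checked by markers of its cell types. The 9 CM markers summed to 45565 and 49890 CPM in Ctrl and to 59501 and 58749 CPM in miR-128OE libraries, with 4 markers higher, 1 lower and a median log2 fold change of 0.25. The 5 genes called higher rose by more than the median of the CM markers, which did not all move in the same direction. The marker *Actn2* rose by 0.76, more than *Vcl* (0.72) and *Dtna* (0.65) and less than *Sgca*, *Sgcd* and *Dag1*. With the libraries scaled to these 9 markers, a setting chosen after the data were seen, *Sgca* (0.84), *Dag1* (0.52) and *Vcl* (0.41) were called higher. *Sgcd* (0.64, adjusted p = 0.0578) and *Dtna* (0.34, adjusted p = 0.0827) were then not called by the edgeR test. *Utrn* was called lower (−0.47, adjusted p = 0.0124), and *Sgcb* (−0.07) and *Ilk* (−0.16) changed sign without a call. That scaling moved the median of all genes to −0.32. *Actn2* is among the 9 markers and also among the higher costamere genes. The scaling cannot tell a larger share of CMs from more of an RNA per CM.

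Markers of other cells moved less evenly. The 7 fibroblast markers summed to 6712 and 4377 CPM in Ctrl and 5520 and 6194 CPM in miR-128OE libraries, with 1 higher and 0 lower. The 7 endothelial markers summed to 1679 and 1618 CPM against 1891 and 1788 CPM, with 3 higher and 1 lower. The 7 smooth muscle and pericyte markers summed to 1873 and 1720 CPM against 2234 and 2573 CPM, with 2 higher and 1 lower. Macrophage, epicardial and atrial markers had 0 called in either direction at an adjusted p under 0.05 by edgeR, among 6, 5 and 4 genes.

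Among rarer cells, the 5 Schwann cell markers summed to 39.9 and 42.6 CPM in Ctrl and to 26.1 and 27.1 CPM in miR-128OE libraries, with 1 higher and 1 lower. The 4 brown fat markers summed to 33.1 and 33.3 CPM against 71.3 and 54.2 CPM, with 3 higher, and the erythroid markers to 39.1 and 27.3 CPM against 72.5 and 65.3 CPM, with 1 of 2 tested genes higher and both α-globin genes at 0 counts. Skeletal muscle, which also makes sarcoglycans, was near absent, at 5.21 to 10.4 CPM over 8 markers, with *Myod1* at 0. Of these markers 3 could be tested, with 0 higher and 1 lower. The part of the other cell types in the results was not tested.

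**Figure D5:**
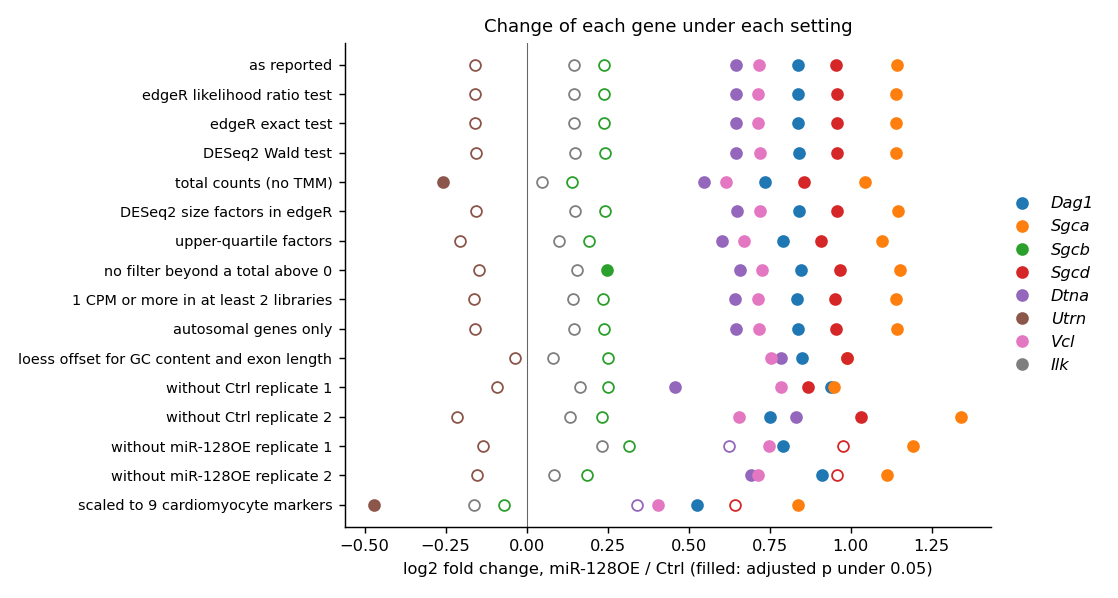
Log2 fold change of the 8 genes as reported and under each other setting but the 1.5-fold minimum, with filled points at an adjusted p under 0.05. *Sgca*, *Dag1* and *Vcl* are filled in every row, *Sgcd* is open without either miR-128OE library, *Dtna* without miR-128OE replicate 1 (WH9), and both with the CM marker scaling. *Utrn* is left of 0 in every row, at −0.04 with the offset for GC content and length.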

How the data were processed

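Per the study's methods, the authors discarded reads of low quality, aligned with TopHat2 to mm10 (the GRCm38 assembly) and counted on known genes. They deposited raw counts per Entrez Gene identifier and library. Gene models, strand and the treatment of reads with several matches are not given in the sources used here. Counting errors and floors cover counting alone, since PCR reads are not independent molecules. A symbol was found for 24381 of 24454 identifiers in RefSeq or GENCODE M21.

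Counts were tested with edgeR 4.0.16 in R 4.3.3, by the quasi-likelihood F test, after filterByExpr (a minimum of 10 counts and a total of 15) and with TMM factors of 0.957 to 1.04. Standard errors come from the log2 fold change and its F statistic. Benjamini-Hochberg adjustment ran over 14266 genes at a threshold of 0.05. CPM use TMM-scaled library sizes, and the floor of 3 counts was 0.214 to 0.360 CPM. The fit was tested on simulated data. Alternatives were other edgeR tests, DESeq2 1.42.0, other scalings and filters, autosomal genes, a loess offset for GC content and length (span 0.5) and left-out libraries. Python 3.11.15 was used for summaries.

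Genes named are the 8 genes, *Dmd*, and the 4 with the smallest p-value in each list. A few that the rule names are not reported here. Others were chosen after their values were seen or for exons that overlap. The genes and lists were chosen with earlier results of these data known.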

Additional observations from a re-analysis of the deposited data

How the results depend on the processing

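Each left-out library leaves 1 group with a single sample, whose spread is assumed to be that of the other group. *Sgca*, *Dag1* and *Vcl* kept direction and call in every setting. *Ilk* did so in every setting but the CM marker scaling, under which it changed sign without a call. No paired analysis was possible because the labels carry no replicate numbers, and the numbers used here follow the order of the samples and tie no library to one of the other group. For the values below the cause was not tested, except where stated.

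With CM marker scaling, *Sgcb* (−0.070) and *Ilk* (−0.16) reversed without a call, 572 of all tested genes were higher and 4905 lower, and of the 8 genes 3 were higher and 1 was lower. As reported, 2347 were higher and 2143 lower, so that 52.3% of calls were higher. Total counts gave 1611 higher and 2948 lower (35.3% higher). DESeq2 called 1410 lower, and a fold of at least 1.5 left 935 higher and 1187 lower. With single libraries left out, 897 to 2654 were higher and 667 to 2384 lower, the lowest without WH9. Of the 8 genes, 3 to 5 were then higher and 0 lower. Total counts made 1 of the 8, *Utrn*, lower. With 6-base seed matches (ACTGTG), 5 of the 8 genes had a match in place of 3, against 47.2% of tested genes.

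With libraries left out, 3 to 6 genes of the dystrophin complex were higher and 1 to 2 lower, 1 to 4 glycosylation genes were higher and 0 to 2 lower, 10 to 19 costamere genes were higher and 0 to 3 lower, and 2 to 8 basement membrane genes were higher and 0 to 2 lower. In the dystrophin complex, total counts gave 3 higher and a 1.5-fold minimum 2 higher. DESeq2 and the offset for GC content and length gave 1 lower each, as did autosomal genes alone (1 lower), which leave out *Dmd* by construction. For glycosylation, the likelihood ratio and exact tests gave 5 higher and 2 lower each, no filter 6 higher and 2 lower, the GC and length offset 5 higher, and total counts 2 lower. In the costamere list a 1.5-fold minimum gave 4 higher and 0 lower, and the GC and length offset 1 lower. In the basement membrane list a 1.5-fold minimum gave 1 higher, and total counts, upper-quartile factors and no filter each gave 1 lower.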
